A study of Arabidopsis thaliana with 48 samples.

Results

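Aliphatic glucosinolates are defence compounds that Arabidopsis makes from methionine. In the chloroplast, cycles of chain elongation lengthen the side chain of methionine, and in the cytosol a core pathway led by cytochromes P450 turns the elongated amino acid into the glucosinolate. A small group of R2R3-MYB transcription factors, with MYB28 in the leading part, switches the enzyme genes on. The genes followed here were 10 named ones, namely the elongation genes BCAT4, BAT5, MAM1 and MAM3, the core-structure genes CYP79F1, CYP79F2, CYP83A1 and SOT18, and the regulators MYB28 and MYB29. These genes, called the members below, were found by locus identifier, and all 10 were listed among 33553 genes and tested by the authors.

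The RNA data compared 3 WT libraries with 3 libraries of acc1-5, both in the Col-0 ecotype, from whole seedlings aged 12 days kept on a cycle of 16 h light and 8 h dark. The name acc1-5 denotes an allele of ACC1, the gene of the cytosolic acetyl-CoA carboxylase, and the labels do not describe the lesion. The series title is about acetyl-CoA and histone acetylation, and the RNA comparison addresses which transcripts differ between the genotypes. A spray of estradiol or solvent is written in the protocol text of every sample, and the labels leave it unclear whether plants for RNA received it.

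The deposited levels are FPKM, fragments scaled to the transcript's length and to the mapped fragments of the library. Each genotype has 1 value, with confidence bounds below and above it. Single libraries are not shown in these tables, so the authors' bounds stand for the error, and the spread between replicates cannot be seen directly. The transcript with the highest mean FPKM over both genotypes stood for its gene, and a gene was called where the authors' q-value was under 0.05. Whole seedlings mix organs, and in such bulk RNA fewer cells of a type and less RNA per cell cannot be told apart. Root hair markers were higher in acc1-5, with all 5 called and their summed level going from 11.5 to 103 FPKM. Of 8 endodermis markers 6 were called higher, 1 was not called and 1 (CASP5) was not tested, with sums of 11.1 and 46.8 FPKM. Among all tested genes 10.9 percent were called higher and 9.04 percent lower. By bounds that do not overlap, 5 root hair and 3 endodermis markers were higher, beside 5.24 percent of all tested genes. Leaf photosynthesis markers summed to 23869 FPKM in WT and 13460 FPKM in acc1-5, and 3 of 7 were called lower. With q under 0.01, 1 leaf marker was lower (5.7 percent of all tested genes), and by bounds that do not overlap 0 were (1.63 percent). All 7 had log2 fold changes below 0. The sums rest mostly on RBCS1A and LHCB1.3, neither of them called. RBCS1A had 9403 FPKM in WT (bounds 0.165 to 28301) and LHCB1.3 had 7928 FPKM (638 to 15191). No marker was at 0 in either genotype.

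Of the 10 genes, 3 were called higher in acc1-5, 1 was called lower and 6 were not called. The 3 were MAM3, CYP79F2 and SOT18, all enzyme genes, and the 1 was the regulator MYB29. Among all 20509 tested genes, 10.9 percent were called higher and 9.04 percent lower. Among the 14598 genes whose mean FPKM lay within the members' own range of 4.40 to 184 FPKM, these shares were 9.32 and 9.85 percent. Under the separate condition that the authors' bounds do not overlap, 1 member was higher and 1 lower, where 5.24 and 1.63 percent of all tested genes were. With q under 0.01, 2 members were higher and 1 lower, beside 7.71 and 5.7 percent of all tested genes. The 8 enzyme and transporter genes had a median log2 fold change of 0.10, beside -0.01 for all tested genes, while the 2 regulators had log2 fold changes of 0.40 and -2.22. With so few genes the counts describe these genes and were not tested against the background.

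**Figure D1:**
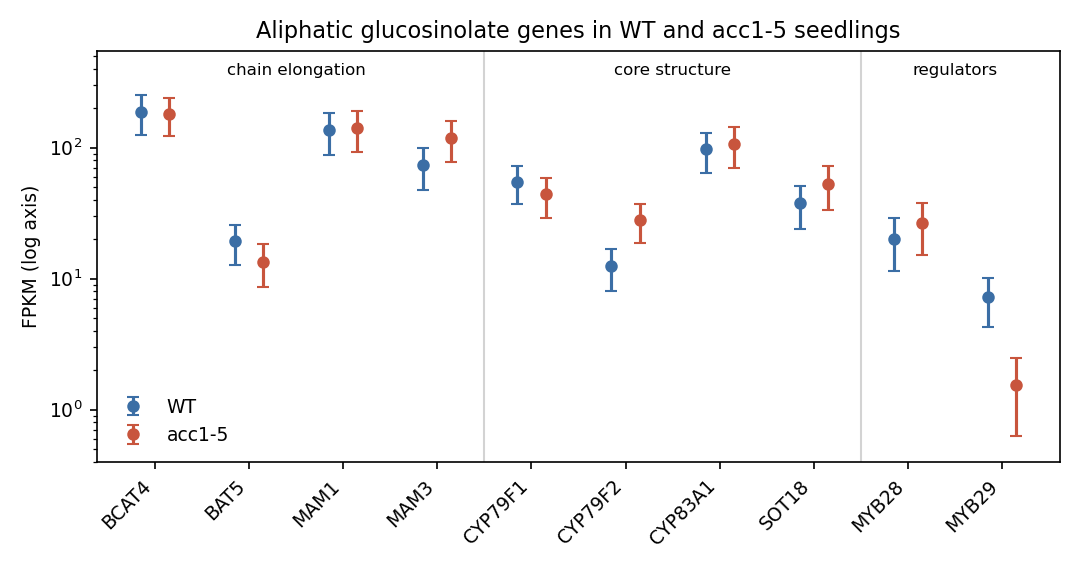
FPKM (log axis) of each of the 10 genes in WT (blue) and acc1-5 (red), with bars from the authors' lower to upper confidence bound, grouped by role. The bounds of the genotypes are apart for CYP79F2, which is higher in acc1-5, and for MYB29, which is lower, and they overlap for the other 8 genes.

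Of the regulators, MYB29 fell and MYB28 was not called. MYB29 (AT5G07690, chromosome 5, 2446764 to 2448543 on TAIR10), which has an accessory part beside MYB28, had 7.24 FPKM in WT (bounds 4.29 to 10.2) and 1.56 FPKM in acc1-5 (0.625 to 2.47). The WT bounds lay wholly above those of acc1-5, and the gene was 4.65-fold lower in the mutant. In the authors' deposited table its log2 fold change was -2.22 with q = 0.000746. Among all tested genes, 0.766 percent had a lower log2 fold change than MYB29. The outermost ratios that the bounds allow for MYB29 were log2 values of -4.02 and -0.80.

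MYB28 (AT5G61420, chromosome 5, 24689151 to 24691095) is the main activator of the aliphatic pathway. Its leading transcript had 20.2 FPKM in WT (11.5 to 28.9) and 26.6 FPKM in acc1-5 (15.1 to 37.9), with q = 0.384 in the authors' deposited table. Its second transcript had 15.4 FPKM in WT (8.65 to 22.1) and 17.1 FPKM in acc1-5 (9.11 to 25.1), with q = 0.850 in the authors' deposited table. Both transcripts overlapped widely between genotypes, and the leading one made up 56.8 percent of the gene's FPKM in WT and 60.8 percent in acc1-5. The bounds of MYB28 allow a log2 fold change between -0.93 and 1.73, a span that holds 0. The ratio of MYB28 to MYB29 was 2.79 in WT and 17.0 in acc1-5, on the FPKM of their leading transcripts. Whether the fold changes of the 2 genes differ was not tested, and the log2 ranges their bounds allow overlap in a narrow stretch.

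MYB76 (AT5G07700, chromosome 5, 2450325 to 2451578), the third factor of this group and a neighbour of MYB29, was named after its values were seen. It had 1.06 FPKM in WT (0.312 to 1.78) and 0.282 FPKM in acc1-5 (0 to 0.535). Its log2 fold change of -1.91 had q = 0.0745 in the authors' deposited table, so it was not called. Summed over transcripts, the 3 factors came to 43.9 FPKM in WT and 45.5 FPKM in acc1-5, a ratio of 1.04. Within that sum MYB29 held 16.5 percent in WT and 3.42 percent in acc1-5, and MYB28 held 81.1 and 96.0 percent. The sums of the genotypes had close values, while the MYB29 part was smaller in acc1-5. Most of each sum is MYB28, which was not called and has wide bounds, so how close the sums are is uncertain.

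**Figure D2:**
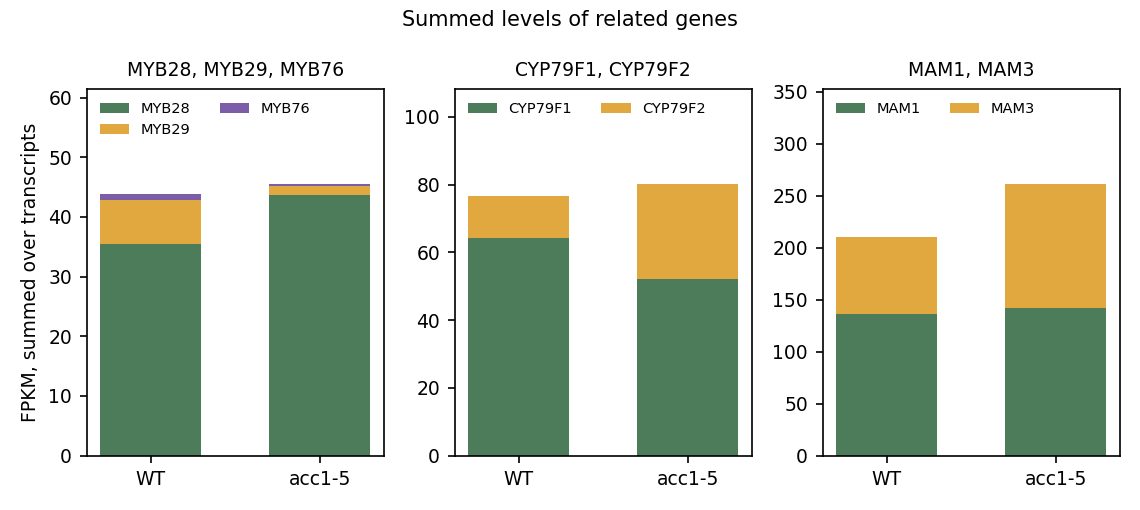
FPKM summed over the transcripts of related genes, stacked by gene, in WT and acc1-5, with 1 deposited value per genotype and no error bar on a sum. The total of the MYB factors is 43.9 and 45.5 FPKM and that of the CYP79F genes 76.6 and 80.2 FPKM, with a smaller MYB29 part and a larger CYP79F2 part in acc1-5.

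Chain elongation begins with BCAT4 (AT3G19710, chromosome 3, 6843662 to 6849497), the aminotransferase that turns methionine into its keto acid. It was the most abundant of the 10 genes in both genotypes, with 189 FPKM in WT (126 to 252) and 180 FPKM in acc1-5 (122 to 238). Its log2 fold change of -0.07 had q = 0.916 in the authors' deposited table. The listed locus of BCAT4 overlaps that of AT3G19700, and the strand setting of the counting is not given in the sources used here, so reads of the 2 genes may not be fully separated.

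BAT5 (AT4G12030, chromosome 4, 7210918 to 7212992) encodes the chloroplast envelope transporter for the keto acids. Its leading transcript had 19.3 FPKM in WT (12.7 to 25.9) and 13.5 FPKM in acc1-5 (8.58 to 18.5), with q = 0.0970 in the authors' deposited table. Its minor transcript had 3.89 FPKM in WT and 2.92 FPKM in acc1-5, with q = 0.800 in the authors' deposited table. Both BAT5 transcripts had the lower value in acc1-5, and neither was called.

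The methylthioalkylmalate synthases MAM1 and MAM3 condense the keto acid with acetyl-CoA. MAM1 serves mainly short chains, and MAM3 can also make long ones. MAM1 (AT5G23010, chromosome 5, 7703092 to 7706896) had 136 FPKM in WT (88.6 to 183) and 142 FPKM in acc1-5 (92.0 to 191), with q = 0.932 in the authors' deposited table. MAM3 (AT5G23020, chromosome 5, 7718121 to 7721839) had 74.0 FPKM in WT (47.4 to 99.7) and 120 FPKM in acc1-5 (78.4 to 161). MAM3 rose 1.62-fold, a log2 fold change of 0.69 with q = 0.00810 in the authors' deposited table, although its bounds overlapped between genotypes. The ratio of MAM1 to MAM3 was 1.84 in WT and 1.19 in acc1-5. These neighbouring genes are close paralogs, so the division of reads between them is uncertain, and their sum was 209.9 FPKM in WT and 261 FPKM in acc1-5, a ratio of 1.24.

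The core structure begins with CYP79F1 and CYP79F2, tandem cytochromes P450 that turn elongated methionines into aldoximes. CYP79F1 accepts short and long chains, and CYP79F2 accepts long chains only. CYP79F2 (AT1G16400, chromosome 1, 5605159 to 5607473) had 12.4 FPKM in WT (8.01 to 16.8) and 28.1 FPKM in acc1-5 (18.8 to 37.5). The acc1-5 bounds lay wholly above those of WT. The gene rose 2.27-fold, a log2 fold change of 1.18 with q = 0.000746 in the authors' deposited table.

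CYP79F1 (AT1G16410, chromosome 1, 5608807 to 5611426) had 54.9 FPKM in WT (37.2 to 72.7) and 44.0 FPKM in acc1-5 (29.1 to 58.9) for its leading transcript. The log2 fold change of -0.32 had q = 0.334 in the authors' deposited table. A second CYP79F1 transcript had 9.22 FPKM in WT (0.144 to 18.7) and 8.01 FPKM in acc1-5 (0.541 to 15.5), also not called. The levels of the leading transcripts thus stood at a ratio of 4.42 (CYP79F1 over CYP79F2) in WT and of 1.56 in acc1-5. The pair is closely alike in sequence, so reads may be divided between them with error, and their sum was 76.6 FPKM in WT and 80.2 FPKM in acc1-5. CYP79F2 supplied 16.2 percent of that sum in WT and 35.1 percent in acc1-5. CYP79F2 is known from hypocotyls and roots, and the root hair and endodermis marker sums given above were higher in acc1-5 as well (11.5 and 103 FPKM, 11.1 and 46.8 FPKM), and their part in its rise was not tested.

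CYP83A1 (AT4G13770, chromosome 4, 7990485 to 7992311) oxidises the aldoximes that the CYP79F enzymes release. It had 97.2 FPKM in WT (64.1 to 130) and 107 FPKM in acc1-5 (70.6 to 144), with q = 0.765 in the authors' deposited table. The last step belongs to sulfotransferases, among them SOT18 (AT1G74090, chromosome 1, 27862909 to 27864193). SOT18 had 37.7 FPKM in WT (23.9 to 51.0) and 53.1 FPKM in acc1-5 (33.6 to 72.0). It rose 1.41-fold with q = 0.0458 in the authors' deposited table, just inside the threshold, and its bounds overlapped between genotypes. Its close relative SOT17 (AT1G18590) was similar, with 26.3 FPKM in WT (16.7 to 35.6), 37.4 FPKM in acc1-5 (23.9 to 49.9) and q = 0.0460 in the authors' deposited table. The ratio of SOT18 to SOT17 was 1.43 in WT and 1.42 in acc1-5.

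Compared as levels per length of the leading transcripts, the 10 genes ran from BCAT4 at the top to MYB29 at the bottom in both genotypes. In WT the order was BCAT4, MAM1, CYP83A1, MAM3, CYP79F1, SOT18, MYB28, BAT5, CYP79F2 and MYB29. None of the 9 pairs of neighbours in that order had bounds that were apart. In acc1-5 the order was BCAT4, MAM1, MAM3, CYP83A1, SOT18, CYP79F1, CYP79F2, MYB28, BAT5 and MYB29, and 1 of 9 neighbouring pairs was apart, BAT5 above MYB29. Summed over its transcripts, MYB28 had 43.7 FPKM in acc1-5, above the 28.1 FPKM of CYP79F2. Against all tested genes in WT, BCAT4 was above 96.4 percent of them by FPKM and MYB29 above 36.0 percent. In acc1-5 MYB29 was above 10.8 percent.

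**Figure D3:**
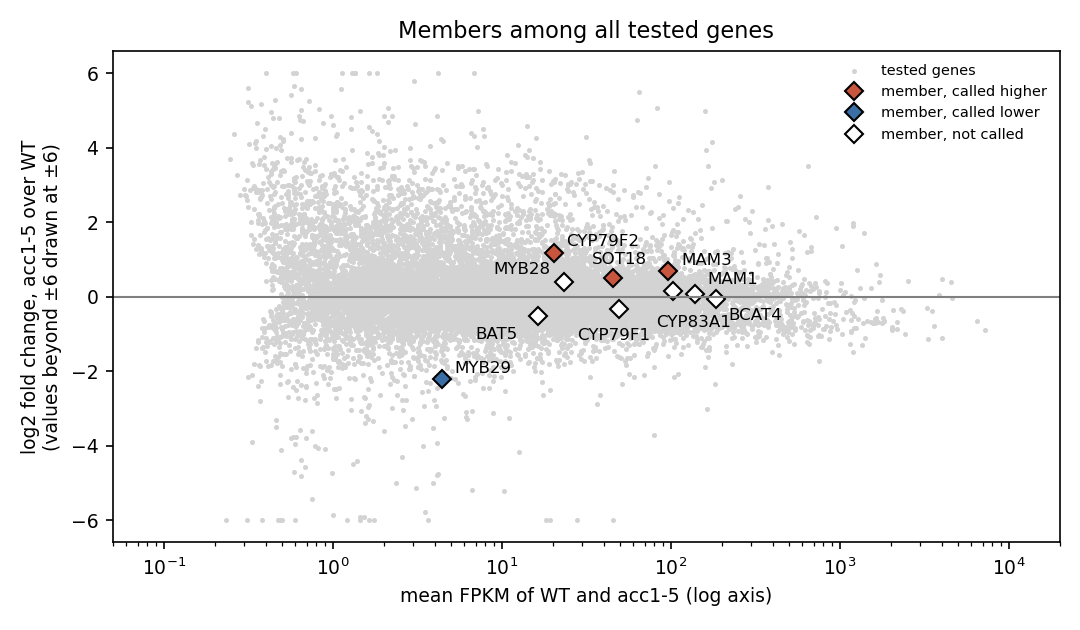
Log2 fold change of acc1-5 over WT against the mean FPKM of both genotypes (log axis), for the tested genes with a finite fold change (grey) and for the 10 members (diamonds, filled where called). MYB29 at -2.22 and CYP79F2 at 1.18 lie farthest from 0, and the other 8 lie between -0.51 and 0.69.

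The wider aliphatic pathway was read from a list of 44 further genes, not all of them particular to the aliphatic branch. Of that list 42 genes were tested, the others being FMO GS-OX5 and NSP2. Of these, 8 were called higher (19.0 percent, beside 10.9 percent of all tested genes), 2 lower (4.76 percent, beside 9.04 percent) and 32 not at all, with a median log2 fold change of 0.28. With bounds that do not overlap, 3 of the 42 were higher and 3 lower, beside 5.24 and 1.63 percent of all tested genes. With q under 0.01, 5 were higher and 2 lower, beside 7.71 and 5.7 percent, with SOT17, APK1 and NSP3 no longer called. None of the 5 further genes of chain elongation was called, and the most abundant, IIL1, the large subunit of the isomerase, had 219 FPKM in WT and 231 FPKM in acc1-5, and the authors' deposited table gives it q = 0.922. Of 7 further core-structure genes 2 were called, both higher (28.6 percent, beside 10.9 percent of all tested genes). They were SOT17 and GGP1, a peptidase gene that processes the glutathione conjugate, which went from 228 FPKM (136 to 307) to 426 FPKM (244 to 598) with q = 0.000746 in the authors' deposited table. Together with the members, 4 of 11 core-structure genes were called higher (36.4 percent, beside 10.9 percent of all tested genes) and 0 lower (beside 9.04 percent). Their log2 fold changes were above 0 for 7 and below for 4. Of 9 elongation genes 1 was called higher (11.1 percent) and 0 lower, with 6 log2 fold changes above 0 and 3 below. With q under 0.01, 2 core-structure genes and 1 elongation gene were higher, beside 7.71 percent of all tested genes. By bounds that do not overlap, 1 core-structure gene and 0 elongation genes were higher, beside 5.24 percent. Whether the 2 groups differ was not tested.

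None of 8 tested genes of side chain modification was called, where 10.9 percent of all tested genes were called higher and 9.04 percent lower. The most abundant, GSL-OH, a dioxygenase gene, had 459 FPKM in WT (271 to 643) and 548 FPKM in acc1-5 (309 to 786). AOP2, another dioxygenase gene of the side chain and one known to be non-functional in Col-0, was singled out after its values were seen. It had 0.938 FPKM in WT (0.179 to 1.68) and 0.0136 FPKM in acc1-5 (0 to 0.107), and it was not called (q = 0.407 in the authors' deposited table) although the bounds were apart. The transporter genes GTR1 and GTR2, which load glucosinolates into the phloem, were not called either. GTR2, the more abundant, had 66.0 FPKM in WT (37.9 to 94.0) and 87.4 FPKM in acc1-5 (53.3 to 122). The listed locus of GTR2 overlaps that of AT5G62670, and the locus of GTR1 overlaps that of AT3G47950. As for BCAT4, reads of these overlapping genes may not be fully separated.

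Among 8 further regulators, 2 were called higher (25 percent, beside 10.9 percent of all tested genes) and 0 lower (beside 9.04 percent). SDI1 (AT5G48850, chromosome 5, 19805437 to 19807759), a sulfur starvation gene whose protein is known to bind MYB28 and repress the pathway, had 3.28 FPKM in WT (1.50 to 5.06) and 25.8 FPKM in acc1-5 (15.3 to 36.0). The bounds were apart, and the rise was 7.86-fold with q = 0.000746 in the authors' deposited table. Its relative SDI2 rose 1.62-fold from 23.7 FPKM (14.3 to 32.6) to 38.3 FPKM (23.6 to 52.0), with q = 0.00612 in the authors' deposited table. The bounds of SDI2 overlapped between genotypes. The basic helix-loop-helix factors MYC2, MYC3 and MYC4, partners of the MYB factors, were not called, and MYC3, the most abundant regulator of the list, had 49.2 FPKM in WT and 48.2 FPKM in acc1-5. In precursor supply 1 of 4 genes was called higher (25 percent, beside 10.9 percent of all tested genes). This was APK1, a kinase gene that makes the sulfate donor, which rose 1.46-fold with q = 0.0265 in the authors' deposited table. APK1 had 63.0 FPKM in WT (39.3 to 83.9) and 91.9 FPKM in acc1-5 (57.3 to 122), with bounds that overlap. The other 3 genes of that group were not called, and their log2 fold changes were positive as well. Among them MS1, a methionine synthase gene, had 512 FPKM in WT (254 to 770) and 711 FPKM in acc1-5 (297 to 1125).

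**Figure D4:**
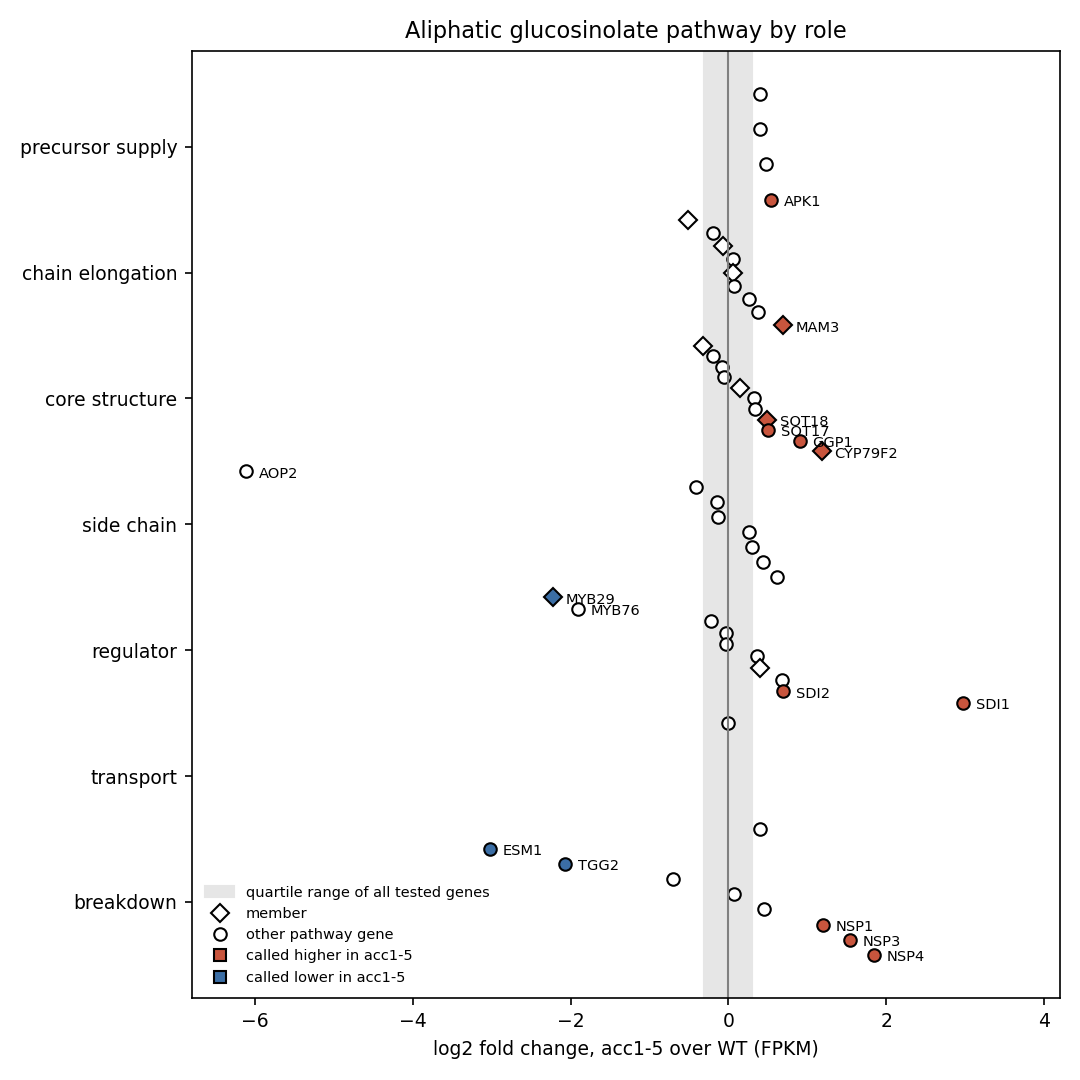
Log2 fold change of acc1-5 over WT for the 52 tested genes of the aliphatic pathway by role (members as diamonds, others as circles, red where called higher and blue where called lower), with the range between the quartiles of all tested genes shaded. Elongation genes lie between -0.51 and 0.69, regulators between -2.22 and 2.97, and breakdown genes between -3.02 and 1.85.

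Breakdown genes went both ways. When tissue is damaged, myrosinases cleave glucosinolates, and other proteins affect whether nitriles or isothiocyanates form. Of 8 tested genes, 3 rose (37.5 percent, beside 10.9 percent of all tested genes), 2 fell (25.0 percent, beside 9.04 percent) and 3 were not called. ESM1 (AT3G14210, chromosome 3, 4729823 to 4731803), which favours isothiocyanates, fell 8.09-fold from 293 FPKM (125 to 459.9) to 36.2 FPKM (23.4 to 48.8), with q = 0.000746 in the authors' deposited table. The myrosinase gene TGG2 fell 4.19-fold from 177 FPKM (82.5 to 272) to 42.4 FPKM (25.5 to 59.3), with the same q in the authors' deposited table. TGG1, the more abundant myrosinase gene, had 872 FPKM in WT (352 to 1393) and 536 FPKM in acc1-5 (293 to 779), and its q of 0.139 in the authors' deposited table left it uncalled. The genes that rose were the nitrile specifier genes NSP1, NSP3 and NSP4. NSP4 rose from 14.3 FPKM (9.10 to 19.5) to 51.5 FPKM (34.5 to 68.5), NSP1 from 111 FPKM (75.0 to 147) to 254 FPKM (148 to 360), and NSP3 from 0.564 FPKM (0.165 to 0.989) to 1.64 FPKM (0.742 to 2.55), with bounds that overlap. These 3 genes lie close together on chromosome 3 and are alike, so the split of reads among them is uncertain. Beside the falls, leaf photosynthesis markers summed to 23869 and 13460 FPKM in WT and acc1-5, mostly from RBCS1A and LHCB1.3 with their wide bounds. The part of these markers in the falls was not tested.

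The indole glucosinolates, made from tryptophan by a parallel pathway, gave 3 calls among 8 tested genes, all higher (37.5 percent, beside 10.9 percent of all tested genes). They were the regulator MYB34 (6.80 to 14.8 FPKM) and the cytochrome P450 genes CYP79B2 (34.4 to 69.2 FPKM) and CYP79B3 (28.9 to 42.4 FPKM), and the bounds were apart for CYP79B2 alone of the 8 genes. The most abundant indole regulator and core gene, MYB51 and CYP83B1, had lower values in acc1-5 and were not called. MYB51 had 79.6 FPKM in WT and 66.1 FPKM in acc1-5, and CYP83B1 had 228 FPKM in WT and 199 FPKM in acc1-5. The R2R3-MYB factors of the aliphatic branch had no called rise, and whether the branches differ was not tested.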

How the data were processed

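The submitters' processing notes name TAIR10 as the build and, as tools, Cuffdiff 2.1.1, Cufflinks 2.1.1, TopHat 1.4.0 and Bowtie. The authors deposited levels as FPKM, 1 value per genotype with bounds of a confidence level that no source used here gives. The authors deposited a log2 fold change (acc1-5 over WT), a p-value and a q-value per transcript, and a test score that was not used. Columns named ACC1 were read as acc1-5, the one mutant with RNA libraries. Their adjustment covers 25307 tested transcripts, and the smallest p-value is 5e-05. Depth is unknown, because low values were not whole multiples of a step (at best 15.7 and 15.9 percent within 5 percent). For tested transcripts of at least 1 FPKM, WT bounds lay, at the median, 41.6 percent of the level away on each side.

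Fold changes, sums, medians and bound comparisons were computed with Python 3.11.15 and pandas 2.3.3, and the code was tested on simulated data. The design foresaw limma for values of single libraries, which these tables do not show, so the authors' q-values served. Whether libraries came from separate cultures is not given in the labels. Members and lists were chosen with earlier results of these data known. Named genes were all members, each called gene of the other aliphatic and the indole lists and the most abundant gene of each aliphatic role. Markers were given by counts and sums, with RBCS1A, LHCB1.3 and CASP5 also named. AOP2, MYB76, MYB51 and CYP83B1 were added after their values were seen. MYC2 and MYC4 were named beside MYC3, GTR1 beside GTR2, and FMO GS-OX5 and NSP2 as the genes not tested. Listed starts were shifted by 1 base to count from 1. Symbols were matched through RefSeq TAIR10.1 by locus tag, and all 10 members matched. Sequences, ChIP and input libraries (42) were not used here.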

Additional observations from a re-analysis of the deposited data

How the results depend on the processing

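Requiring non-overlapping bounds instead of q under 0.05 left 1 member higher (CYP79F2; 5.24 percent of all tested genes) and 1 lower (MYB29; 1.63 percent). With q under 0.01, 2 members stayed higher (MAM3 and CYP79F2; 7.71 percent of tested genes) and 1 lower (MYB29; 5.7 percent), and SOT18, at a log2 fold change of 0.49, was no longer called. A pseudocount of 1 FPKM moved the regulators' median log2 fold change from -0.91 to -0.65, by construction through the low level of MYB29. Calling any transcript, a minimum mean of 1 FPKM, a pseudocount of 0.1, sums over transcripts and centring on the median of tested transcripts changed no call, where they bear on calls, and moved no member's direction. No paired analysis was possible because the tables hold 1 value per genotype, and leaving out single libraries was not run for the same reason. Depth is unknown, so no value has a counting interval. The same rules of q under 0.01 and of non-overlapping bounds were applied to the other lists, a choice made after seeing the data. Among the other aliphatic genes, calls of higher levels went from 8 to 5 with q under 0.01 (7.71 percent of tested genes). They went to 3 with bounds that do not overlap (5.24 percent). Calls of lower levels in that list stayed at 2 with q under 0.01 (5.7 percent) and went to 3 with such bounds (1.63 percent). Among the indole genes calls of higher levels went from 3 to 2 with q under 0.01 and to 1 with such bounds, beside the same shares of tested genes.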
